A study of Mus musculus with 14 samples.

Results

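10 transcription regulators of blood stem cells and leukemia were followed through treatment and relapse of a mouse leukemia with mutant IDH1: the homeobox genes Meis1, Hoxa7, Hoxa9, Hoxa10 and Pbx3, the ETS factor genes Erg and Fli1, and Sox4, Mecom and Mllt3. They were chosen by name, and all 10 of 10 were found by symbol among the 52636 gene identifiers of the count table. RNA came from leukemic progenitors, positive for cKit and negative for CD11b, sorted from 14 recipients of I1DN cells, the labels' name for this leukemia. Mice received vehicle for 5 days (n = 3) or 14 days (n = 2), AG120 for 5 days (n = 3) or 14 days (n = 2), or AG120 for 28 days and were taken after disease had relapsed (n = 4). AG120, also known as ivosidenib, inhibits the mutant IDH1 enzyme. All 5 groups carried the same leukemia, the time between the end of treatment and relapse is not given, and each library was taken as 1 mouse.

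HOX proteins bind DNA together with TALE homeobox partners, a class that holds the MEIS and PBX proteins, and the pairing of HOXA9 with MEIS1 is known as a driver of acute myeloid leukemia. MLL complexes keep HOXA genes and Meis1 active in stem cells and in leukemias with MLL fusions, and MLLT3 (AF9) is a reader of histone acylation that joins such complexes in fusions. ERG and FLI1 are closely related ETS factors of stem cells, megakaryocytes and endothelium, SOX4 is a factor of immature cells, and MECOM (EVI1) is a zinc finger protein of long-term stem cells.

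The stretches of 250 bases before the transcription start of Meis1, Sox4 and Erg, which were lower under AG120, and of Mllt3, which was higher at day 14, are shown so that the promoters can be compared. They are RefSeq sequences on GRCm38.p6, all on the minus strand, written 5′ to 3′ and ending at the base before the start. For Erg and Mllt3, with 3 and 2 starts listed, the start farthest upstream is shown. Capitals mark matches to any of 4 motifs, searched on both strands.
Meis1 (chr11:19018970-19019219): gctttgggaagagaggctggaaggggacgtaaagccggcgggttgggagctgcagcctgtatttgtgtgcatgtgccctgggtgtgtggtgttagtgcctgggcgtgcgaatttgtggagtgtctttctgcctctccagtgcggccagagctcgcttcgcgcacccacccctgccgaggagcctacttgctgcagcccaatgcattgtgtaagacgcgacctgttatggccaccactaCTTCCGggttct
Sox4 (chr13:28953700-28953949): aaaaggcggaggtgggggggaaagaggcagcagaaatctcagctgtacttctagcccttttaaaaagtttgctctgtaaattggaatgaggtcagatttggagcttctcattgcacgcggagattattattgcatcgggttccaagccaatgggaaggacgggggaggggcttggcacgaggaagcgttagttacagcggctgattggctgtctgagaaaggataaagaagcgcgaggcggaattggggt
Erg (chr16:95586594-95586843): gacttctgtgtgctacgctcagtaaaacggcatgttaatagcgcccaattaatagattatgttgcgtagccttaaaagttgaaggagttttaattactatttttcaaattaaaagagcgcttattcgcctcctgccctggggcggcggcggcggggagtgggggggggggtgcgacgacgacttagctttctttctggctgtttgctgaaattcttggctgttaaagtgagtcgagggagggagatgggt
Mllt3 (chr4:88033408-88033657): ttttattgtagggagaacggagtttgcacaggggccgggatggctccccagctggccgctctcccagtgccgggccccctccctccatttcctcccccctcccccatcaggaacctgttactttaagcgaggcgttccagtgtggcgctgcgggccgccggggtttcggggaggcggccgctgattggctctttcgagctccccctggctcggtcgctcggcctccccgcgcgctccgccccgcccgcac
The motifs were CGGAAG for ETS factors, AGATAA for GATA factors, TGACAG for MEIS proteins and TGATNNAT for pairs of PBX with HOX, none of which contains another. In the 4 stretches shown, 1 ETS match was found, in that of Meis1. It begins 12 bases before the RefSeq start and is written there as its reverse complement. The GENCODE span of Meis1 begins farther upstream, at 19018985, so by that annotation the match lies within the gene. The ETS letters occur in 13.6% of the 32851 stretches of the same length before listed mouse starts, the GATA letters in 9.99%, the MEIS letters in 15.9% and the PBX with HOX letters in 7.68%. Guanine and cytosine made up 59.6% of the Meis1 stretch, 50.8% of Sox4, 48.8% of Erg and 69.2% of Mllt3. Of the starts not shown, the Erg stretch at chr16:95459349-95459598 held 1 GATA and 2 MEIS matches and the Mllt3 stretch at chr4:87806324-87806573 held 1 MEIS match, and the remaining Erg stretch held none. Sequencing from the 3′ end does not show which start was used.

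Libraries held 4995738 to 8691708 counts, of which 50.9% to 74.8% lay in ribosomal RNA gene models, the highest share being in AG120 day 14 replicate 1. Relapse replicates 1 and 4 correlated at 0.972 (Pearson, log2 CPM) and replicates 2 and 3 at 0.957, whereas the other relapse pairs were at 0.920 to 0.935, so results for relapse are also given without either pair. A count from this 3′ assay does not scale with transcript length. Levels are in CPM, a gene's count relative to the TMM-scaled total of its library, fold changes are from edgeR's quasi-likelihood test over all 14 libraries, and adjusted p-values are Benjamini-Hochberg over 11994 genes, with 0.05 as the threshold. Of the 10 members, 6 had enough counts to be tested (Meis1, Sox4, Erg, Fli1, Pbx3 and Mllt3) and 4 did not (Hoxa7, Hoxa9, Hoxa10 and Mecom). Kit, which encodes the receptor used for the sort, was detected in every library at 11.6 to 52.0 CPM, and Itgam, which encodes CD11b, at 2.56 to 53.5 CPM. Kit fell at day 14 of AG120 (log2 −1.63 ± 0.49, SE, edgeR adjusted p = 0.0220) and Itgam at day 5 (−2.02 ± 0.53, adjusted p = 0.0103). Kit did not pass at day 5 (−0.41 ± 0.35, edgeR adjusted p = 0.393), nor Itgam at day 14 (−1.19 ± 0.61, adjusted p = 0.154). In relapse both were higher than in AG120, Kit by 0.99 ± 0.31 (edgeR adjusted p = 0.0188) and Itgam by 2.64 ± 0.40 (adjusted p = 0.000177). Against vehicle neither passed in relapse, with Kit at −0.03 ± 0.29 (edgeR adjusted p = 0.983) and Itgam at 1.04 ± 0.35 (adjusted p = 0.275).

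The 3 HOXA genes were almost silent in every group, treated or not. Hoxa9, the HOX gene best known from leukemia, had 14 counts in all 14 libraries together. Its counts were 0, 0 and 0 in vehicle day 5, 1 and 1 in vehicle day 14, 1, 0 and 0 in AG120 day 5, 2 and 2 in AG120 day 14, and 0, 4, 0 and 3 in relapse replicates 1 to 4. Hoxa10 had 4 counts in all and Hoxa7 had 1. Mecom had 6 counts, with at most 1 in any library. A single count equalled 0.110 to 0.298 CPM, and a library with 0 counts allows up to 3 counts, or 0.330 to 0.895 CPM (counting error only), so no change of these 4 genes was detectable at this depth.

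The rest of the HOX family was also low. Of 39 genes in the 4 HOX clusters, 25 had at least 1 count, 14 had none, and 0 were tested. The 39 genes together gave 107 counts over 14 libraries, 2 to 22 per library, and the highest count of any of them in 1 library was 8. Meis1, whose protein pairs with HOXA9, was at 78.5 to 265 CPM in the vehicle and relapse libraries.

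**Figure D1:**
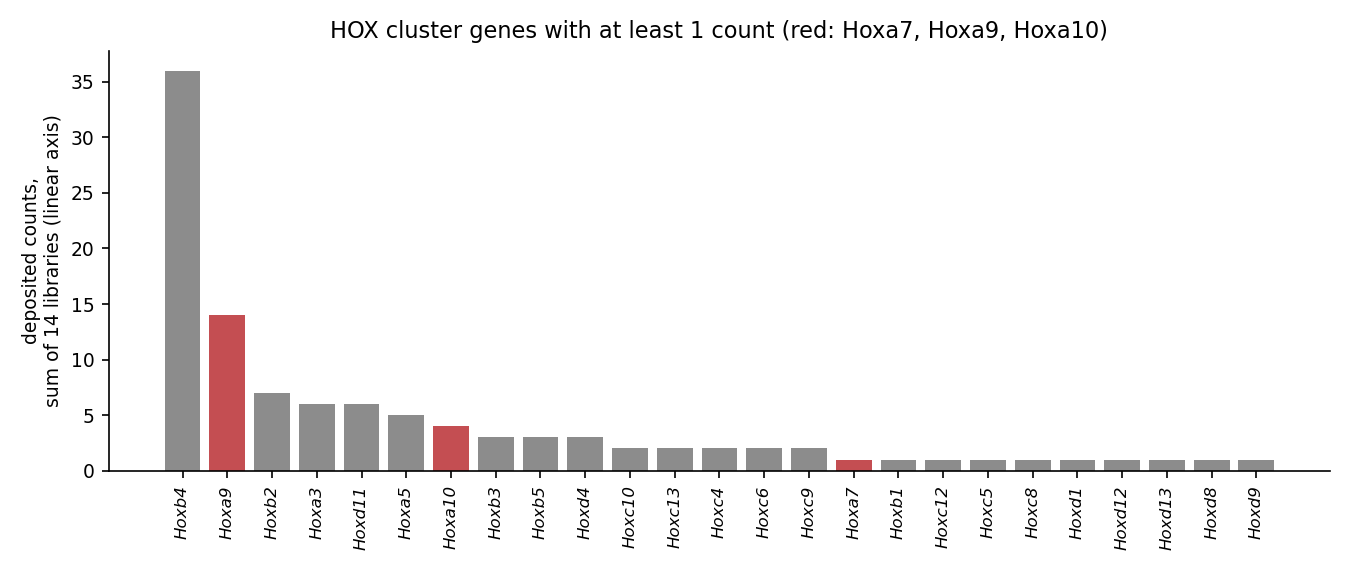
Deposited counts (vertical axis, linear, summed over the 14 libraries) of each HOX cluster gene with at least 1 count (horizontal axis), with Hoxa7, Hoxa9 and Hoxa10 in red. Hoxa9 reached 14 counts, Hoxa10 4 and Hoxa7 1, and all 39 HOX genes together 107.

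Meis1, the TALE homeobox partner of HOX proteins, was 8.89-fold lower after 5 days of AG120. It stood at 185, 150 and 142 CPM in the 3 vehicle day 5 libraries and at 21.5, 14.3 and 17.7 CPM in the 3 AG120 libraries. The treated libraries all lay far below the vehicle libraries, and the log2 fold change was −3.15 ± 0.43 (SE, edgeR adjusted p = 0.000188). At day 14 it was at 133 and 141 CPM in vehicle and at 6.87 and 8.21 CPM in AG120, again with no overlap (log2 −4.17 ± 0.60, SE, edgeR adjusted p = 0.000297). Meis1 lies on chromosome 11 from 18879817 to 19018985 (GRCm38, minus strand).

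Sox4, a transcription factor of immature and leukemic cells, also fell at both days. It was at 457, 309 and 296 CPM in vehicle day 5 and at 58.2, 32.1 and 41.0 CPM in AG120 day 5. Every AG120 library was below every vehicle library, and the gene was 8.07-fold lower (log2 −3.01 ± 0.53, SE, edgeR adjusted p = 0.00132). At day 14 vehicle libraries stood at 307 and 361 CPM and AG120 libraries at 9.85 and 9.81 CPM, 34.0-fold lower (log2 −5.09 ± 0.76, SE, edgeR adjusted p = 0.000562).

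Counts of Sox4 could not be told apart from those of Gm26735, a long noncoding RNA gene on the opposite strand. Sox4 spans 28948919 to 28953713 on chromosome 13, and an exon of Gm26735 covers 2616 of those bases, 28949056 to 28951671, towards the 3′ end of the single Sox4 exon. Gm26735 held 81.8% of the Sox4 count in AG120 day 14 replicate 1 and 91.8% to 95.9% in the others. Gm26735 had a log2 fold change of −3.02 ± 0.53 at day 5 and −5.21 ± 0.78 at day 14. Whether the authors' counting used strand is not given in the sources used here.

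**Figure D2:**
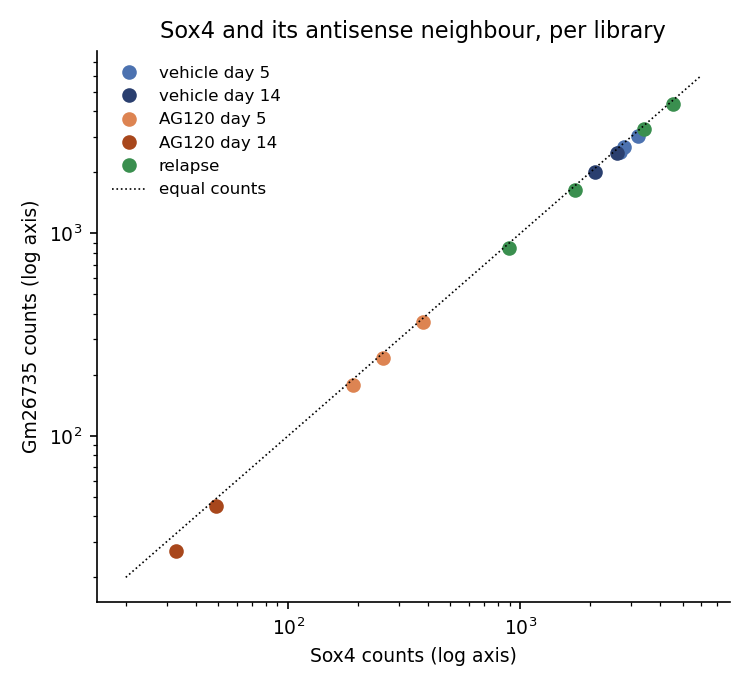
Counts of Gm26735 (vertical axis, log) against counts of Sox4 (horizontal axis, log), with 1 point per library coloured by group and a dotted line of equal counts. All 14 points lie just under the line, from 33 Sox4 and 27 Gm26735 counts in AG120 day 14 replicate 1 to 4545 and 4345 in relapse replicate 3.

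Erg, an ETS factor of blood stem cells, fell 5.82-fold at day 5. It was at 16.2, 16.6 and 14.7 CPM in vehicle and at 3.66, 2.02 and 2.40 CPM in AG120 (log2 −2.54 ± 0.36, SE, edgeR adjusted p = 6.68e-05), with no overlap. At day 14, single libraries of AG120 had 1 and 2 counts (0.298 and 0.400 CPM), against 125 and 106 counts in vehicle (18.3 and 14.7 CPM). The fitted log2 fold change was −5.45 ± 0.70 (SE, edgeR adjusted p = 3.00e-05). With 3 pooled counts against 231 the vehicle level was 45.7 times that in AG120, with a 95% exact interval of 15.4 to 223 that covers counting error only. Erg lies on chromosome 16 from 95359169 to 95586593.

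Fli1, the ETS factor most closely related to Erg, fell at both days as well. Vehicle day 5 libraries were at 32.3, 30.6 and 30.0 CPM and AG120 day 5 libraries at 7.16, 8.57 and 7.82 CPM. Both sets were tight and apart from each other, and the gene was 3.94-fold lower (log2 −1.98 ± 0.18, SE, edgeR adjusted p = 2.66e-07). At day 14 it was at 27.4 and 36.9 CPM in vehicle and at 6.27 and 3.60 CPM in AG120, 6.75-fold lower (log2 −2.75 ± 0.25, SE, edgeR adjusted p = 3.63e-07). Fli1 lies on chromosome 9 from 32422204 to 32542861.

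Pbx3, another TALE partner of HOX proteins, passed at neither day. It stood at 11.5, 7.85 and 8.03 CPM in vehicle day 5 and at 5.49, 7.56 and 6.87 CPM in AG120 day 5 (log2 −0.45 ± 0.35, SE, edgeR adjusted p = 0.325). At day 14 vehicle libraries were at 7.18 and 7.74 CPM and AG120 libraries at 9.55 and 11.4 CPM (log2 0.50 ± 0.44, SE, edgeR adjusted p = 0.407). The AG120 libraries lay below vehicle on day 5 and above it on day 14, and day 5 passed when the fit held only the 2 groups compared (edgeR adjusted p = 0.0448).

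Mllt3, the chromatin reader also known as AF9, was higher in AG120 at day 14. Its counts were 3, 5 and 4 in vehicle day 5 and 2, 5 and 1 in AG120 day 5, which overlapped (log2 −0.15 ± 0.70, SE, edgeR adjusted p = 0.892). At day 14 it had 1 and 2 counts in vehicle (0.147 and 0.276 CPM) and 10 and 18 in AG120 (2.98 and 3.60 CPM). The fitted log2 fold change was 3.85 ± 0.79 (SE, edgeR adjusted p = 0.00119), and the pooled counts, 28 against 3, gave a ratio of 15.7 with a 95% exact interval of 4.86 to 80.8 (counting error only). Mllt3 reached 10 counts in each library of AG120 day 14 and of no other group, so it entered the test through the group in which it was high, and its call is given as a description. The gene lies on chromosome 4 from 87769925 to 88033364.

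**Figure D3:**
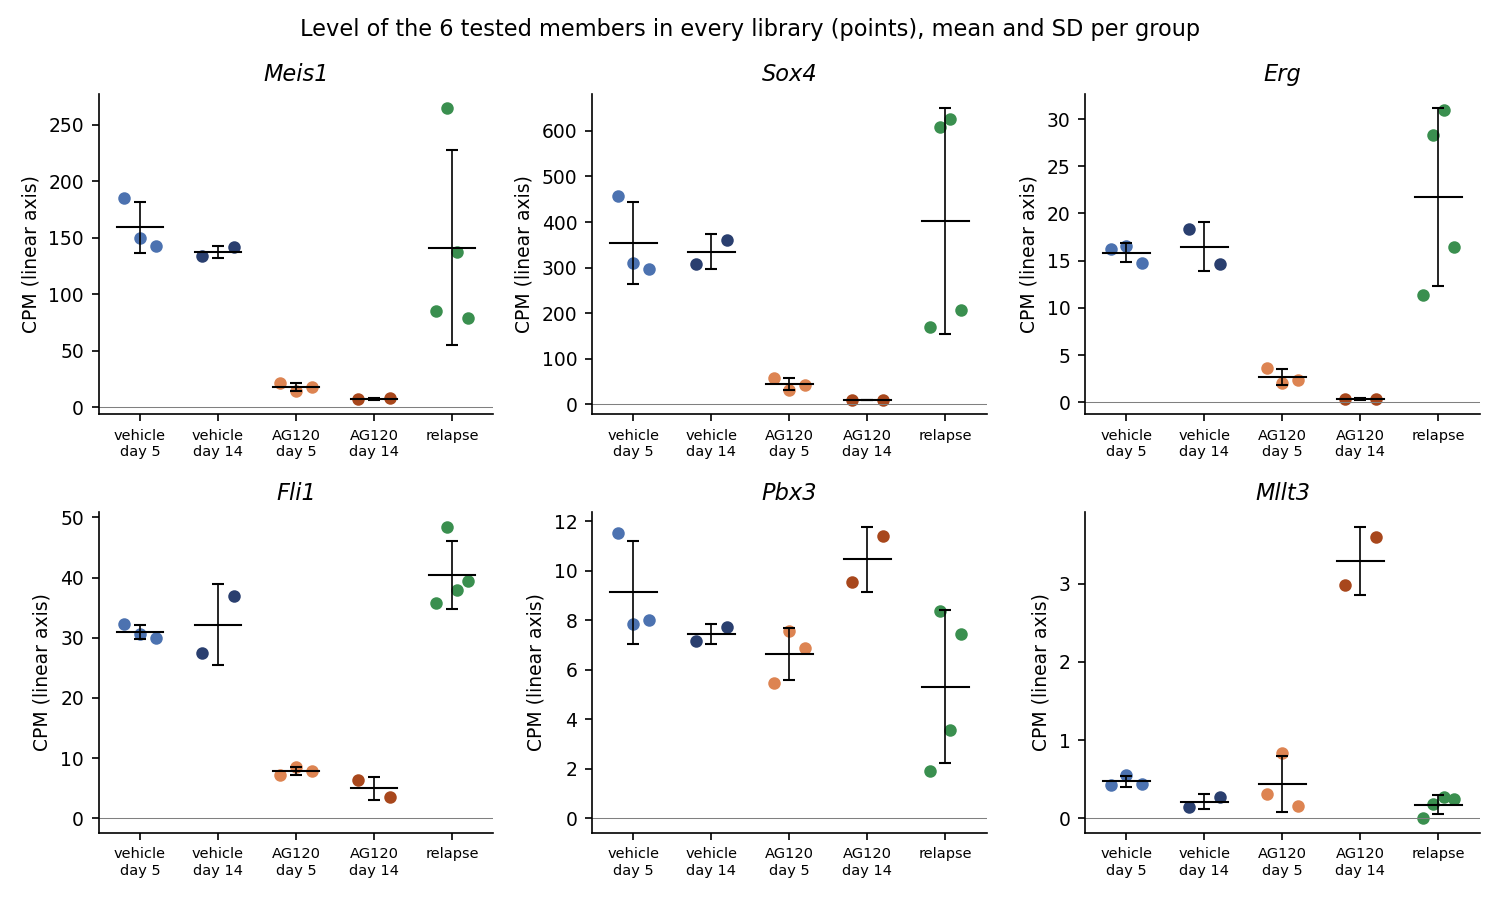
CPM (vertical axes, linear) of the 6 tested members in every library (points) by group (horizontal axes), with the group mean and SD as bars. Meis1, Sox4, Erg and Fli1 are low in all 5 AG120 libraries, Mllt3 is high in the 2 AG120 day 14 libraries, and the 4 relapse libraries are spread widely for all but Fli1 and Mllt3.

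At day 5, 4 of the 6 tested members fell and 0 rose, where 19.3% of all tested genes fell and 20.1% rose. At day 14, 4 fell, and Mllt3, which had passed the filter through AG120 day 14, was the 1 called higher, where 17.9% of all tested genes fell and 16.8% rose. At day 5 the AG120 libraries lay all below the vehicle libraries for 5 of the 6 and all above for 0, which held for 29.8% and 30.1% of all tested genes, 59.9% together. At day 14 they lay all below for 4 and all above for 2, which held for 36.3% and 34.2% of all tested genes, 70.5% together. The median log2 fold change of the 6 was −2.26 at day 5 and −3.46 at day 14, against −0.000873 and −0.00621 over all genes tested. Because the members had been chosen with these changes known, the counts describe them and are no test. Each of these calls of Meis1, Sox4, Erg and Fli1 held under every alternative run, including the loss of any 1 library.

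The effect at day 14 was not shown to differ from that at day 5 for any member. Subtracting the day 5 effect from the day 14 effect gave log2 values of −2.91 ± 0.95 for Erg, −2.07 ± 0.88 for Sox4, −1.02 ± 0.72 for Meis1, −0.77 ± 0.31 for Fli1, 0.95 ± 0.56 for Pbx3 and 3.99 ± 1.08 for Mllt3 (SE). By edgeR, 0 of the 6 passed, the adjusted p-values being, in the same order, 0.206, 0.372, 0.640, 0.317, 0.541 and 0.104, where 0.934% of all tested genes passed. Without adjustment 4 were under 0.05, and DESeq2 and limma-voom each called 0. Erg alone passed with no filter on low counts (adjusted p = 0.000638), and Erg (0.00257), Meis1 (0.00578) and Mllt3 (0.0161) passed when the fit left out relapse.

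In relapse the 4 members that had fallen were again far above their AG120 levels. Against the mean of both AG120 groups, Erg was 21.5-fold higher (log2 4.43 ± 0.38, SE, edgeR adjusted p = 2.09e-07), Sox4 19.4-fold (4.27 ± 0.48, adjusted p = 3.27e-05), Meis1 12.1-fold (3.59 ± 0.38, adjusted p = 1.25e-05) and Fli1 6.59-fold (2.72 ± 0.16, adjusted p = 4.94e-10). For each of the 4, all relapse libraries lay above all AG120 libraries. Mllt3 was lower than in AG120 (−2.57 ± 0.64, adjusted p = 0.00295), with 0, 1, 2 and 2 counts in relapse, a range that overlapped AG120 day 5. This too is a description, since the AG120 mean holds the group through which Mllt3 passed the filter. Pbx3 was at −0.63 ± 0.31 (adjusted p = 0.0958) and passed with no filter on low counts (0.0371), with limma-voom (0.0458), with the replicate block (0.0484), and without relapse replicate 2 (0.0264) or 4 (0.0370). In all, 4 members rose, and Mllt3 was the 1 called lower, where 27.9% of all tested genes rose and 26.1% fell, 54% together. Libraries lay all above AG120 for 4 members and all below for 0, which held for 18.3% and 18.9% of all tested genes, 37.2% together.

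Against both vehicle groups, 0 of the 6 members passed in relapse, where 0.183% of all tested genes did (0.1% higher and 0.0834% lower). The log2 fold changes were 0.43 ± 0.24 for Erg, 0.35 ± 0.13 for Fli1, 0.23 ± 0.40 for Sox4, −0.07 ± 0.32 for Meis1, −0.61 ± 0.30 for Pbx3 and −0.72 ± 0.76 for Mllt3 (SE, edgeR adjusted p 0.296 to 0.961). Without adjustment 1 was under 0.05, and DESeq2 and limma-voom called 0. For all 6 the relapse and vehicle libraries overlapped, whereas the relapse libraries lay all above vehicle for 1.98% and all below for 1.97% of all tested genes, 3.95% together. The comparisons of relapse with vehicle and with AG120 share the 4 relapse libraries.

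**Figure D4:**
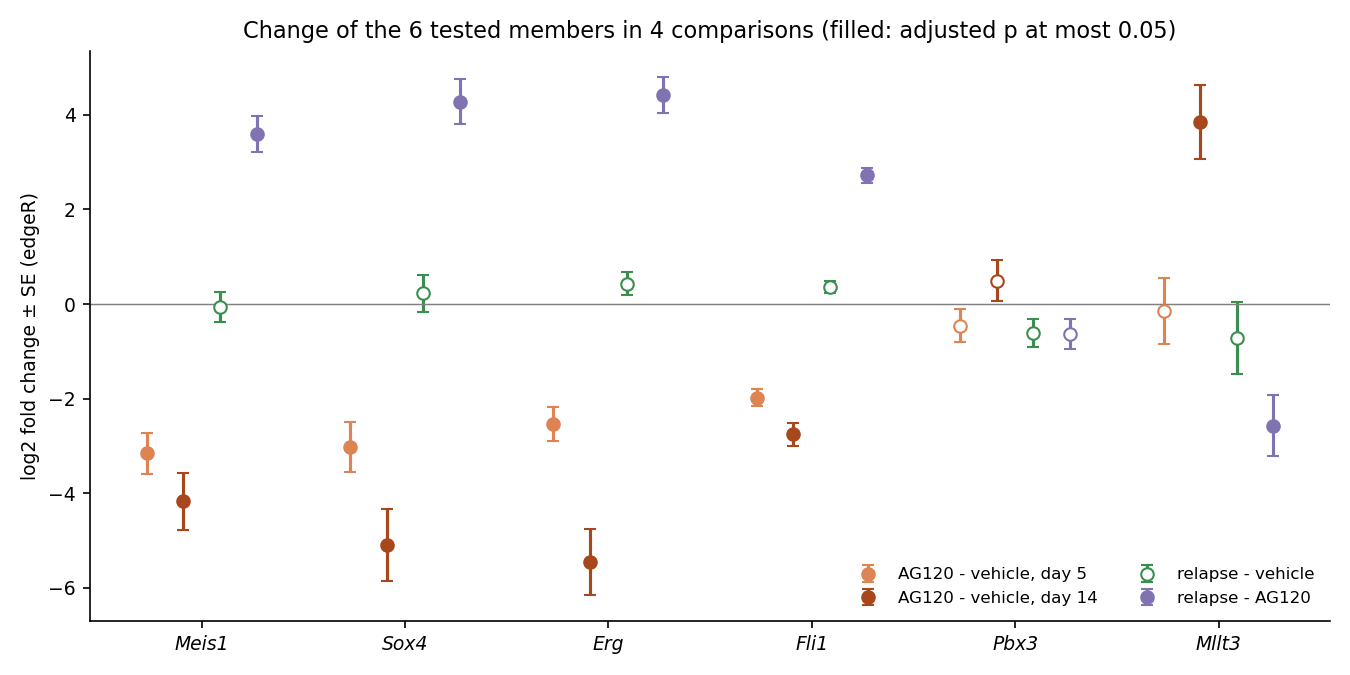
Log2 fold change with SE (vertical axis, edgeR) of each tested member (horizontal axis) in 4 comparisons, coloured by comparison, with filled points for adjusted p at most 0.05. Meis1, Sox4, Erg and Fli1 are below 0 at both days of AG120 and above 0 for relapse against AG120, and relapse against vehicle has no filled point.

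The relapse libraries differed widely from each other, with an SD of 86.3 CPM for Meis1 against 22.8 in vehicle day 5 and 5.61 in vehicle day 14. Meis1 was at 84.8, 265, 137 and 78.5 CPM in relapse replicates 1 to 4, that is 56.4%, 176%, 91.1% and 52.2% of the vehicle mean. Replicates 1 and 4 lay below every vehicle library, replicate 2 above, and replicate 3 within their range. Sox4 was at 169, 608, 625 and 207 CPM, 48.9%, 176%, 181% and 59.7% of the vehicle mean. For this gene replicates 1 and 4 lay below and replicates 2 and 3 above all vehicle libraries. Erg was at 11.3, 28.3, 31.0 and 16.4 CPM, with replicate 1 below, replicates 2 and 3 above and replicate 4 within the vehicle range.

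Fli1 was closer together among the relapse libraries. At 35.7, 48.5, 38.0 and 39.4 CPM, its relapse libraries lay between 114% and 154% of the vehicle mean, with replicate 1 within the vehicle range and the other 3 above it. Pbx3 was at 1.89, 8.37, 3.58 and 7.43 CPM, which put replicates 1 and 3 below the vehicle range and replicates 2 and 4 within it. The Hoxa9 counts of 4 and 3 in relapse were in replicates 2 and 4, and the other 2 libraries had 0.

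Differences from vehicle varied with the relapse libraries used. Without relapse replicates 1 and 4, the log2 fold changes against vehicle were 0.88 for Erg, 0.84 for Sox4, 0.45 for Fli1 and 0.44 for Meis1. Without replicates 2 and 3 they were −0.16 for Erg, −0.84 for Sox4, 0.28 for Fli1 and −0.83 for Meis1. The pairs were formed from the libraries' own likeness, after the data had been seen, and are not groups of the study. The spread within such a pair is small by that choice, so no error or p is given. Against AG120, Meis1, Sox4, Erg and Fli1 were higher by 4.10, 4.89, 4.87 and 2.82 without replicates 1 and 4, and by 2.84, 3.22, 3.84 and 2.67 without replicates 2 and 3.

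**Figure D5:**
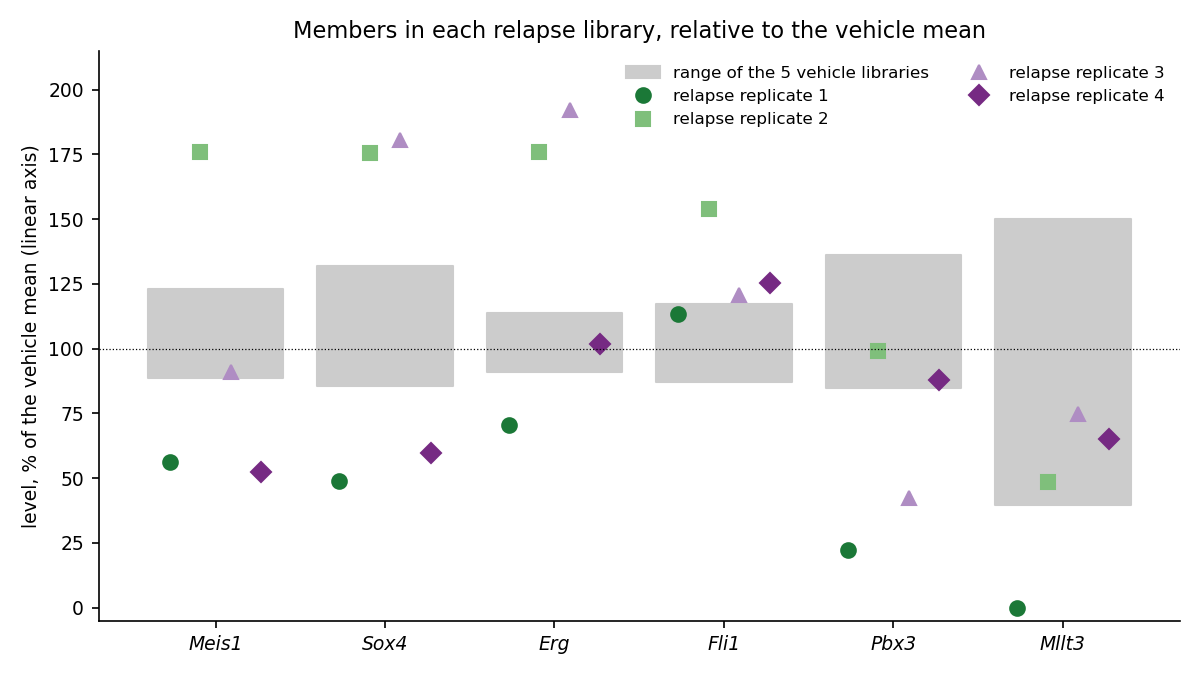
Level of each tested member (horizontal axis) in the 4 relapse libraries (symbols) as a percentage of the mean of the 5 vehicle libraries (vertical axis, linear), with the vehicle range in grey. For Sox4, replicates 2 and 3 stand at 176% and 181% and replicates 1 and 4 at 48.9% and 59.7%, whereas all 4 relapse libraries are at 114% to 154% for Fli1.

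Markers of other blood lineages also differed between the groups, some in the direction of Meis1, Sox4, Erg and Fli1 and others not. In bulk RNA, fewer cells of a type and less RNA per cell cannot be told apart. The summed level of 16 erythroid markers was 113 to 200 CPM in vehicle and 83.1 to 497 in relapse, and under AG120 709 to 842 at day 5 and 1957 to 2235 at day 14, with 16 of 16 detected in each group. The 10 megakaryocyte markers summed to 252 to 343 CPM in vehicle, to 39.1 to 62.2 (day 5) and 104 to 106 (day 14) under AG120, and to 94.1, 296, 288 and 114 in relapse replicates 1 to 4, the same order of pairs as for Sox4. The 5 genes of the sort and of progenitors (Kit, Cd34, Flt3, Ly6a and Itgam) summed to 175 to 201 CPM in vehicle and 197 to 260 in relapse, and under AG120 to 33.9 to 47.5 at day 5, with Ly6a at 0 counts, and 22.4 to 26.0 at day 14. Cd34, which encodes a progenitor surface protein, went from 139 ± 11.2 to 10.1 ± 2.13 CPM at day 5 (SD, n = 3 each). The part of these lineages and of progenitors in the results was not tested. Endothelial cells express Erg and Fli1, so 10 endothelial markers were looked at. Among them Cdh5 had 0 counts in all vehicle and AG120 libraries and 1 count in relapse. Kdr and Emcn reached at most 0.427 and 0.336 CPM in any library. Tek was at 1.99 to 3.56 CPM in vehicle day 5, 0.168 to 0.958 in AG120 day 5 and 0.567 to 4.81 in relapse. In the same groups Tie1 stood at 1.66 to 2.71, 0 to 0.457 and 0.378 to 3.92 CPM. Esam stood at 0.774 to 1.28, 0 to 0.152 and 0.839 to 2.49 CPM. The part of endothelial cells was not tested. The endothelial sum was 140 to 159 CPM in vehicle, 58.6 to 83.8 in AG120 and 127 to 197 in relapse. Pecam1 (96.1 to 108 CPM in vehicle) and Egfl7 (37.4 to 46.2) made up most of it. Under AG120 Pecam1 was lower, at 18.4 to 26.5 CPM on day 5 and 9.55 to 16.8 on day 14. Egfl7 overlapped vehicle on day 5, at 31.8 to 50.7 CPM. On day 14 Egfl7 was above vehicle, at 49.4 to 51.0 against 41.3 to 42.3 CPM.

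Neutrophil markers (10 of 10 detected) summed to 583 to 1189 CPM in vehicle and 260 to 1293 in relapse, and under AG120 to 122 to 209 at day 5 and 1292 to 1692 at day 14. Monocyte markers stood at 33.7 to 50.7 CPM in vehicle, 26.0 to 30.8 in AG120 and 34.5 to 84.1 in relapse. Mast cell and basophil markers were at 103 to 132 CPM in vehicle and 60.4 to 82.7 in relapse, and under AG120 at 52.4 to 54.6 on day 5 and 19.4 to 21.2 on day 14. B cell markers summed to at most 4.29 CPM and T and NK cell markers to at most 3.88 CPM in any library. The part of these lineages was not tested.

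Among the other genes of the ETS family, 15 of 24 were tested, and 8 fell and 1 rose at day 5 (median log2 fold change −0.62), where 19.3% of all tested genes fell and 20.1% rose. Spi1, which encodes the myeloid master regulator PU.1, went from 30.6 ± 4.14 to 6.23 ± 0.83 CPM (SD, n = 3 each, log2 −2.29 ± 0.23), and Elk3, a ternary complex factor, was at −2.27 ± 0.32. Gabpa, a broadly expressed ETS factor, rose by 0.52 ± 0.17 (edgeR adjusted p = 0.0213). At day 14, 7 fell and 0 rose (median −0.95), where 17.9% of all tested genes fell and 16.8% rose, and Spi1 was at −3.28 ± 0.32. In relapse 9 were higher than in AG120 and 0 lower, where 27.9% of all tested genes were higher and 54% passed in either direction. Etv6, a repressor needed by stem cells, was higher by 2.40 ± 0.14. No ETS gene passed against vehicle by edgeR or limma-voom, whereas DESeq2 called 1 and 2 had an unadjusted p under 0.05. Of all tested genes, 0.183% passed against vehicle by edgeR.

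TALE homeobox genes other than the members were mixed. Of 9, 6 were tested, and at day 5 Tgif1, a homeobox repressor of TGF-beta signalling, fell by 1.14 ± 0.29 while its paralog Tgif2 rose by 0.57 ± 0.21. At day 14 Tgif1 was at −2.17 ± 0.42 and Pknox1, a PBX partner also called PREP1, at −0.87 ± 0.20, both lower, and 0 were higher (medians −0.33 and −0.50). Of all tested genes, 39.4% passed at day 5 and 34.7% at day 14 in either direction. In relapse Tgif1 (1.92 ± 0.26) and Pknox1 (0.61 ± 0.13) were higher than in AG120 and Tgif2 lower (−0.44 ± 0.18, edgeR adjusted p = 0.0488). Against vehicle 0 of 6 passed in relapse by any of edgeR, DESeq2 or limma-voom, and 0 had an unadjusted p under 0.05. By edgeR, 54% of all tested genes passed in relapse against AG120 and 0.183% against vehicle.

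Relatives of Mecom and Sox4 were also looked at, gene by gene and with no test of a family as a whole. Of 11 PRDM genes, 7 were tested, with 3 lower at day 5 and 4 at day 14 and 0 higher (medians −0.45 and −0.97), where 39.4% and 34.7% of all tested genes passed in either direction. Prdm16, the closest relative of Mecom, went from 22.7 ± 3.10 to 5.67 ± 0.82 CPM at day 5 (SD, n = 3 each, edgeR adjusted p = 1.00e-06) and was 2.18 ± 0.17 higher in relapse than in AG120. Mecom itself stayed at 0 or 1 count per library. Of 13 other SOX genes 2 were tested. Sox15, a small SOX factor, was higher in relapse than in vehicle by 0.66 ± 0.10 (edgeR adjusted p = 0.00784). It did not pass at day 5 (−0.06 ± 0.12, edgeR adjusted p = 0.729) or day 14 (0.05 ± 0.15, adjusted p = 0.821). Sox6 went from 0.94 ± 0.54 to 8.34 ± 2.08 CPM at day 14 (SD, n = 2 each). It did not pass there (log2 3.15 ± 1.16, SE, edgeR adjusted p = 0.0511), where limma-voom called 1 of the 2 SOX genes. AG120 day 14 carried Sox6 past the low-count filter, so these values are a description.

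Genes of MLL complexes and of the elongation complexes that work with MLLT3 were all tested (24 of 24). At day 5, 4 rose and 2 fell and at day 14, 5 rose and 2 fell, with medians of 0.15 and 0.13, where 39.4% and 34.7% of all tested genes passed in either direction. Ell2, an elongation factor for RNA polymerase II, went from 6.71 ± 0.87 to 28.3 ± 1.64 CPM at day 5 (SD, n = 3 each, log2 2.07 ± 0.20) and was at 2.29 ± 0.24 at day 14. Aff4, the scaffold of the super elongation complex, fell by 0.97 ± 0.19 and 1.26 ± 0.25. Kmt2a, which encodes MLL itself, fell by 0.49 ± 0.18 at day 5 (edgeR adjusted p = 0.0416). In relapse 4 were higher and 8 lower than in AG120, where 54% of all tested genes passed in either direction. Against vehicle 0 passed by edgeR or limma-voom, with 1 by DESeq2 and 3 at an unadjusted p under 0.05. Of all tested genes, 0.183% passed against vehicle by edgeR.

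Erg and Fli1 belong to a set of factors that bind together in blood stem cells, and the other 5 were Gata2, Runx1, Tal1, Lyl1 and Lmo2. At day 5 Lyl1 (−1.46 ± 0.14), Gata2 (−1.23 ± 0.36) and Runx1 (−0.93 ± 0.20) fell and Lmo2 rose by 0.63 ± 0.19. At day 14 the same 3 were lower, with Gata2 at −2.43 ± 0.49, Runx1 at −1.80 ± 0.26 and Lyl1 at −1.25 ± 0.18. Of all tested genes, 39.4% passed at day 5 and 34.7% at day 14 in either direction. In relapse all 3 were higher than in AG120, by 1.34 ± 0.32 for Gata2, 1.11 ± 0.12 for Lyl1 and 0.98 ± 0.17 for Runx1, and Lmo2 was lower (−0.42 ± 0.16). By edgeR 0 of 5 passed between relapse and vehicle, as by DESeq2 and limma-voom, with 2 at an unadjusted p under 0.05. By edgeR, 54% of all tested genes passed in relapse against AG120 and 0.183% against vehicle.

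Of 22 genes known to respond to HOXA9 and MEIS1 in other leukemia models, 17 were tested. At day 5, 7 fell and 3 rose (median −0.22), where 19.3% of all tested genes fell and 20.1% rose. At day 14, 11 fell and 1 rose (median −2.17), where 17.9% fell and 16.8% rose. Cd34 was at −3.78 ± 0.17 at day 5 and −4.77 ± 0.23 at day 14, and was higher in relapse than in AG120 by 4.48 ± 0.15. Mef2c, a factor of leukemic stem cells, went from 59.6 ± 6.04 to 13.1 ± 1.80 CPM at day 5 (SD, n = 3 each, log2 −2.18 ± 0.13), and Eya1, a transcriptional coactivator, fell by 2.29 ± 0.57 at day 5 and by 4.85 ± 1.08 at day 14. At day 14 Eya1 was at 3.97 ± 0.64 CPM in vehicle and 0.100 ± 0.142 in AG120 (SD, n = 2 each). The AG120 level is below that of 1 count per library, so low counts limit the size of this fall. Trib2, a pseudokinase, rose by 2.23 ± 0.50 at day 5 (edgeR adjusted p = 0.00223), from 0.62 ± 0.23 to 3.03 ± 0.86 CPM (SD, n = 3 each). No group without AG120 at sampling had a Trib2 mean above 0.62 CPM. Trib2 therefore passed the low-count filter through the treated libraries, where it was high. Its calls, which are included in the numbers of genes given here for both days and for relapse against AG120, are a description. Myb, a progenitor factor, rose by 0.50 ± 0.12 at day 5 (edgeR adjusted p = 0.00304), and its effect at day 14 was lower than at day 5 by a log2 difference of −1.20 ± 0.19 (edgeR adjusted p = 0.00664). In relapse 12 were higher and 2 lower than in AG120, where 27.9% of all tested genes were higher and 26.1% lower. Against vehicle 0 passed by edgeR, with 1 each by DESeq2 and limma-voom and 2 at an unadjusted p under 0.05. Of all tested genes, 0.183% passed against vehicle by edgeR.

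The genes with profiles most like the members over the 14 libraries were found by the root mean square difference of log2 CPM, each gene centred on its own mean, among 6589 genes with a mean log2 CPM of at least 3. For Meis1 they were Gm16140, at 0.20 log2 units, Angpt1, which encodes the ligand angiopoietin 1, at 0.24, and Lat2, a signalling adaptor, at 0.28, where Meis1 itself had a spread of 1.73. Gm16140 is an antisense gene that shares 896 exon bases with Meis1 and had 16.3% to 26.1% of its count, so the 2 cannot be told apart there. Angpt1 (0.38) and Lat2 (0.42) were also the nearest to Sox4 after Gm26735. Nearest to Erg was Sox4 (0.32, against a spread of 1.83), and nearest to Fli1 was Etv6 (0.17, against 1.19). Mllt3 had E2f2, a cell cycle factor, as its nearest gene at 0.49 (spread 1.01). These are descriptions of likeness over libraries that share their treatment groups.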

How the data were processed

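The authors' deposited values are unnormalized read counts for each Ensembl gene in 14 libraries made with the QuantSeq 3′ kit, which reads transcripts near their polyadenylated end. The submitters' processing notes list cutadapt 1.14, HISAT2 2.1.0, Subread 1.6.3 with featureCounts, edgeR 3.28.1 and mm10. No source used here gives the strand or multi-mapping settings. Symbols were matched by identifier (52403 named), with positions from GENCODE (GRCm38) and promoters from RefSeq (GRCm38.p6), where 8 of the 10 members had an entry.

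After filterByExpr (minimum count 10) and TMM scaling, all groups entered 1 fit in edgeR 4.0.16 under R 4.3.3 (robust quasi-likelihood, 1 coefficient per group, 9 residual degrees of freedom). Log2 CPM used a prior count of 2. DESeq2 1.42.0, limma 3.58.1 (voom), RLE scaling, no filter, no ribosomal RNA models, only the groups compared, a replicate block and leaving out libraries were alternatives. The script was tested on simulated data. Named were all members, up to 3 changed genes per list and direction (or the 2 of highest expression), and the 3 nearest profiles, of which some are given. Members and lists were chosen with earlier results of these data known.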

Additional observations from a re-analysis of the deposited data

How the results depend on the processing

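Meis1, Sox4, Erg and Fli1 kept direction and call at day 5, at day 14 and in relapse against AG120 under every alternative run. Genes differing in effect between the days numbered 112 in the reported fit, 374 with no filter, 854 with only the groups compared, 187 with DESeq2, 30 with limma-voom and 13 to 61 without 1 library, and members called went from 0 to 1 with no filter and 3 with only the groups compared. Genes called between relapse and vehicle numbered 22, against 267 with no filter, 7 with only the groups compared, 120 with DESeq2 and 8 to 119 without 1 library. They numbered 1762 without relapse replicates 1 and 4 (3 members called) and 1569 without replicates 2 and 3 (1 member called), pairs chosen by their likeness after seeing the data, so that these counts are no test. The cause was not tested.

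Signs turned where no call had been made. Without 1 library, Mllt3 at day 5 ranged from −0.97 to 0.23 (0.05 without AG120 day 5 replicate 1). For relapse against vehicle, Meis1 ranged from −0.54 to 0.13 (0.11 without relapse replicate 1) and was at 0.44 without replicates 1 and 4. Sox4 was at −0.000509 with limma-voom, ranged from −0.071 to 0.48 without 1 library (−0.029 without replicate 2), and was at −0.84 without replicates 2 and 3, where Erg was at −0.16. The cause was not tested.

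Correlations of deviations from group means did not settle whether equal replicate numbers in the labels pair the samples. At day 5 they were 0.107, 0.0491 and 0.0171 for the 3 pairs of equal number and −0.106 to 0.0770 for unequal numbers. AG120 day 5 replicate 2 was closest to another number, vehicle replicate 3. At day 14, with 2 libraries per group, centring left only 0.0685 for equal and −0.0685 for unequal numbers, which cannot decide the question. With the replicate block, 4677 genes were called at day 5, 4129 at day 14, 108 between the days, 16 between relapse and vehicle and 6167 between relapse and AG120. Meis1 in relapse against vehicle was then at 0.12, and Pbx3 in relapse against AG120 passed (adjusted p = 0.0484). Counts of 0 to 18 limit Mllt3, Erg at day 14 and the HOX genes.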

Other observations

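Hoxb4, a homeobox gene used to expand blood stem cells, had the most counts of the HOX cluster genes and was looked at after its values were seen. It had 8, 8 and 7 counts in vehicle day 5 and 4 and 4 in vehicle day 14, or 0.79 ± 0.24 CPM (SD, n = 5). AG120 libraries had 0, 1 and 1 counts at day 5 and 1 and 1 at day 14 (0.17 ± 0.11 CPM, SD, n = 5), and relapse libraries had 0, 1, 0 and 0. The gene was below the filter on low counts. With no filter, edgeR's adjusted p over 29966 genes was 0.0275 at day 5, 0.717 at day 14 and 0.0407 for relapse against vehicle. Because Hoxb4 was picked on these same values, the p-values describe it and are no test. The pooled counts were 31 in vehicle, 4 in AG120 and 1 in relapse, and a library with 0 counts allows up to 3.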
